A study of Mus musculus with 72 samples.

Results

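The opioid system of the mouse was described here through 7 genes, the 4 opioid receptor genes Oprm1, Oprd1, Oprk1 and Oprl1 and the 3 peptide precursor genes Penk, Pdyn and Pnoc. They were chosen by name and found through their Ensembl identifiers, all 7 among the 53715 gene identifiers counted. The counts came from RNA sequencing of whole tissue from mice lacking Gnb5, which encodes Gβ5, the G-protein beta subunit that partners the R7 family of RGS proteins. The study used these mice as a model of a human syndrome of developmental disorder with cardiac arrhythmia caused by loss of GNB5. Male mice of 18 weeks on a C57BL/6J background were wild-type (Gnb5+/+), heterozygous (Gnb5+/-) or homozygous (Gnb5-/-) for a germline deletion that removes an exon of Gnb5, with 6 mice per genotype. Both atria and both ventricles were taken from mice of all 3 genotypes, and the cerebellum, the hippocampi and the cerebral cortex from Gnb5+/+ and Gnb5-/- mice. This gave 12 groups of 6 libraries, 72 in all, and the tissues of a mouse carry the same mouse number. No drug is named for the mice sequenced, and the deletion is present in every cell type in Gnb5-/- mice and in 1 copy in Gnb5+/- mice.

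Opioid receptors are cell-surface receptors coupled to inhibitory G proteins of the Gi/o family. Once a peptide binds, the released G-protein subunits open inwardly rectifying potassium channels, close calcium channels and lower cyclic AMP, which quiets the cell. R7 RGS proteins, held stable by Gβ5, speed the end of that signal, which is why this receptor family is of interest in Gnb5 mutants. Oprm1 encodes the mu receptor, the main target of morphine, Oprd1 the delta receptor, Oprk1 the kappa receptor and Oprl1 the nociceptin receptor. Penk encodes proenkephalin, cut into enkephalins that favour delta and mu receptors. Pdyn encodes prodynorphin, the source of the kappa-preferring dynorphins, and Pnoc encodes prepronociceptin, the source of nociceptin. In the brain, Penk and Pdyn are best known as markers of the striatal projection neurons, and in the heart enkephalin has long been known as a product of the muscle itself.

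The precursors carry their peptides as short repeats in their coding sequence. The classical opioid peptides all open with tyrosine, glycine, glycine and phenylalanine, and the stretches that encode this core are shown because they are what sets Penk, Pdyn and Pnoc apart from each other. Each line gives the 2 codons before the core, the 4 core codons in capitals and the 3 codons after it, 5′ to 3′ on the coding strand (GRCm38, minus strand for all 3 genes). Proenkephalin encoded the core 7 times, all in exon 2 of 2. Copies 1 to 5 and 7 are followed by a methionine codon (Met-enkephalin or its extended forms) and copy 6 by a leucine codon (Leu-enkephalin).
Penk copy 1, chr4:4134328-4134354: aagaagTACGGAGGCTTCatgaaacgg
Penk copy 2, chr4:4134307-4134333: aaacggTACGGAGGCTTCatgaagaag
Penk copy 3, chr4:4134220-4134246: aagaggTATGGCGGCTTCatgaagaag
Penk copy 4, chr4:4134067-4134093: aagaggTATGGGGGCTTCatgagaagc
Penk copy 5, chr4:4133995-4134021: aagcgcTACGGGGGCTTCatgagaagg
Penk copy 6, chr4:4133935-4133961: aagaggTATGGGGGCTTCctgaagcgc
Penk copy 7, chr4:4133842-4133868: aaaagaTACGGGGGCTTTatgcggttc

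Prodynorphin encoded the core 3 times, all in exon 4 of 4, each followed by a leucine codon and an arginine codon. Pnoc held no such core. Its nociceptin peptide starts with phenylalanine in place of tyrosine, and the capitals in the Pnoc line (exon 3 of 4) mark that altered core.
Pdyn copy 1, chr2:129688232-129688258: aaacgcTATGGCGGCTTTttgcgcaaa
Pdyn copy 2, chr2:129688124-129688150: aaacgcTATGGGGGCTTCctgcggcgc
Pdyn copy 3, chr2:129688067-129688093: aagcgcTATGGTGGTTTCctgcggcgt
Pnoc, chr14:65404872-65404898: aaaaggTTTGGGGGCTTCaccggggcc

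Among 21576 protein-coding genes with a complete coding sequence in the annotation, 72 (0.334%) held the tyrosine-first core at least once. Only 4 of them held it 2 or more times, Penk with 7 copies, Pdyn with 3, and the hair keratin-associated genes Krtap19-2 and Krtap19-4 with 5 and 3. Pomc, the precursor of beta-endorphin, held 1 copy. The coding sequences of the members were 1371 bases in Oprm1, 1119 in Oprd1, 1143 in Oprk1, 1104 in Oprl1, 807 in Penk, 747 in Pdyn and 639 in Pnoc. The longest run of bases shared between any 2 receptors was 25, between Oprk1 and Oprl1.

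Library totals ranged from 29204390 to 48807435 counts (median 38864900). Mean Gnb5 levels in Gnb5-/- libraries were 1.52 to 14.5 CPM (counts scaled to a common library size), against 29.7 to 104 CPM in Gnb5+/+ libraries of the same tissues, and every Gnb5-/- library lay below every Gnb5+/+ library. The labels of cerebellum and atria held against their marker lists. The cerebellar list summed to between 3655 and 4065 CPM in Gnb5+/+ cerebellum, against at most 353 CPM in any cortex or hippocampal library. The atrial list summed to at least 22081 CPM in Gnb5+/+ atria against at most 527 CPM in any ventricular library. The hippocampal list was less distinct from heart, at 416 to 503 CPM in Gnb5+/+ hippocampi and 294 to 393 CPM in Gnb5+/+ ventricles. In Gnb5+/+ cortex it summed to 158 to 226 CPM. The cortex list summed to 453 to 511 CPM in Gnb5+/+ cortex and 196 to 227 CPM in Gnb5+/+ hippocampi, so both lists separated these 2 tissues. In 4 libraries the levels of well-expressed genes departed from their group with exonic length (r of -0.69 to -0.54 across genes, against -0.46 to 0.42 in the other 68). They were the Gnb5-/- cortex of mice 3 and 14, the Gnb5-/- cerebellum of mouse 12 and the Gnb5+/- ventricles of mouse 4, and the main differences that rest on them are given with and without them. In whole tissue, fewer cells of a type and less RNA per cell cannot be told apart. Each library is a separate mouse within its group, so in comparisons between genotypes the p-values measure the spread between mice. Comparisons between tissues drew on the same 6 mice and treated their libraries as independent, except where each mouse was fitted as a block. CPM also carries size factors (TMM), which in Gnb5+/+ libraries were 0.583 to 0.875 in heart and 1.28 to 1.43 in brain. Differences between heart and brain depend on these factors. Unless stated otherwise, levels are CPM with the lowest, the median and the highest of 6 libraries, differences are on the log2 scale from edgeR's quasi-likelihood test with their standard error (SE), and p-values were adjusted over all genes tested by Benjamini-Hochberg, with 0.05 as the threshold for a call.

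Oprm1 (ENSMUSG00000000766, chr10:6758506-7038198, plus strand), the mu receptor gene, was detected in brain and had no count in any of the 36 heart libraries. Those 36 libraries hold 1273646290 counts together, and a count of 0 allows a level of up to 0.00307 CPM over them, for counting error only. In Gnb5+/+ mice its levels were 1.26, 1.79 and 2.22 CPM in cortex, 0.46, 1.16 and 1.34 CPM in hippocampi, and 0.0165, 0.125 and 0.285 CPM in cerebellum. Cortex was highest, hippocampi followed with a small overlap and cerebellum lay below both. The gene was rare even where it was highest, with 64 to 127 counts per Gnb5+/+ cortex library and 1 to 19 per Gnb5+/+ cerebellum library. Hippocampi and cortex did not pass the threshold (-0.70, SE 0.30, adjusted p = 0.0755), although they did when each mouse was fitted as a block (-0.72, adjusted p = 0.0287). Cerebellum was lower than cortex by a log2 difference of -3.54 (SE 0.35, adjusted p = 1.12e-08). Against a floor of 3 counts over the 6 Gnb5+/+ atrial libraries, the mean Gnb5+/+ cortex level was at least 105-fold higher, and against the ventricles at least 70.2-fold higher. Ipcef1, on the opposite strand, shares 96 of the exonic bases of Oprm1.

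Oprd1 (ENSMUSG00000050511, chr4:132110726-132144486, minus strand), the delta receptor gene, was the only receptor gene with counts in all 72 libraries. Its Gnb5+/+ levels were 16.4, 18.0 and 19.997 CPM in cortex and 9.48, 11.95 and 13.2 CPM in hippocampi. In ventricles they were 0.384, 0.81 and 2.84 CPM, in atria 0.228, 0.518 and 1.45 CPM, and in cerebellum 0.213, 0.398 and 0.719 CPM. Cortex and hippocampi did not overlap, while the other 3 tissues overlapped each other at levels far below them. Cortex exceeded hippocampi (hippocampi minus cortex -0.62, SE 0.24, adjusted p = 0.0449), a call that was lost with DESeq2 (adjusted p = 0.0843). Ventricles exceeded cerebellum (1.27, SE 0.35, adjusted p = 0.00154). Most of this difference rested on the size factors, 0.583 to 0.731 in ventricles and 1.40 to 1.43 in cerebellum. Summed counts were 139 in ventricles, 157 in cerebellum and 112 in atria. In CPM, atria fell between ventricles and cerebellum, a place that also depends on the factors. Atria differed from neither past the threshold (atria minus ventricles -0.83, SE 0.37, adjusted p = 0.0599, atria minus cerebellum 0.43, adjusted p = 0.265). DESeq2 called atria lower than ventricles (adjusted p = 0.0242). Levels in Gnb5+/+ heart rest on 7 to 55 counts per library.

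Oprk1 (ENSMUSG00000025905, chr1:5588466-5606131, plus strand), the kappa receptor gene, was highest in the cortex libraries, where its levels are set beside a list of striatal genes below. In Gnb5+/+ mice it stood at 9.51, 11.6 and 13.1 CPM in cortex, 1.44, 1.58 and 1.92 CPM in hippocampi and 0.0494, 0.271 and 0.384 CPM in cerebellum. The 3 brain tissues did not overlap, and each step was past the threshold (hippocampi minus cortex -2.81, SE 0.23, adjusted p = 2.18e-11, cerebellum minus hippocampi -2.71, SE 0.27, adjusted p = 2.99e-10). In heart, 26 of 36 libraries had no Oprk1 count and none had more than 2.

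Oprl1 (ENSMUSG00000027584, chr2:181715016-181720985, plus strand), the nociceptin receptor gene, was the most abundant receptor gene in every brain tissue. Its Gnb5+/+ levels were 37.7, 40.1 and 42.2 CPM in hippocampi, 32.1, 33.9 and 40.7 CPM in cortex and 3.87, 5.66 and 6.69 CPM in cerebellum. Hippocampi and cortex overlapped, and cerebellum lay below both. The difference between hippocampi and cortex was 0.23 (SE 0.11, adjusted p = 0.103), and cerebellum was lower than hippocampi (-2.81, SE 0.12, adjusted p = 7.51e-20). Heart libraries held 0 to 6 counts, with 17 of 36 at 0.

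Penk (ENSMUSG00000045573, chr4:4133531-4138819, minus strand), the proenkephalin gene, was the only precursor gene expressed in every tissue, heart included. Its Gnb5+/+ levels were 67.3, 110 and 152 CPM in cortex, 43.6, 49.7 and 59.8 CPM in cerebellum and 21.8, 25.8 and 30.1 CPM in atria. In hippocampi they were 14.3, 16.4 and 19.5 CPM, and in ventricles 7.74, 8.63 and 12.2 CPM. No neighbours in this order overlapped, and each step was past the threshold. Cerebellum was lower than cortex (-1.03, SE 0.13, adjusted p = 2.72e-08), atria were lower than cerebellum (-1.05, adjusted p = 1.41e-08), atria exceeded hippocampi (0.65, SE 0.13, adjusted p = 4.87e-05), and ventricles were lower than hippocampi (-0.86, SE 0.14, adjusted p = 1.84e-06). The step between atria and hippocampi rested on the size factors. Summed Penk counts were 4727 in Gnb5+/+ atria and 5297 in Gnb5+/+ hippocampi, and the factors 0.767 to 0.875 and 1.28 to 1.32. Within the heart, atria exceeded ventricles by 1.51 (SE 0.14, adjusted p = 1.85e-10). A non-coding gene on the opposite strand, A830012C17Rik, shares 233 exonic bases with Penk, and whether reads were counted by strand is not given in the sources used here.

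Pdyn (ENSMUSG00000027400, chr2:129686565-129699844, minus strand), the prodynorphin gene, was a gene of the forebrain tissues. It stood at 22.8, 29.5 and 34.9 CPM in Gnb5+/+ cortex and at 10.9, 11.7 and 13.9 CPM in Gnb5+/+ hippocampi. In Gnb5+/+ cerebellum it reached only 0.036, 0.0548 and 0.195 CPM, from 2 to 11 counts per library. Cortex, hippocampi and cerebellum formed 3 separate ranges (hippocampi minus cortex -1.27, SE 0.17, adjusted p = 1.66e-06, cerebellum minus cortex -8.29, adjusted p = 9.47e-20). In heart, 31 of 36 libraries had no Pdyn count, and all 18 ventricular libraries were at 0. Against the floor of 3 counts over the 6 Gnb5+/+ ventricular libraries, the mean level was at least 1206-fold higher in cortex and at least 496-fold higher in hippocampi.

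Pnoc (ENSMUSG00000045731, chr14:65400673-65425472, minus strand), the prepronociceptin gene, was low and even across the forebrain. Gnb5+/+ levels were 3.77, 4.43 and 5.18 CPM in cortex, 3.68, 3.85 and 5.25 CPM in hippocampi and 0.557, 0.62 and 0.906 CPM in cerebellum. Cortex and hippocampi overlapped almost wholly (-0.09, SE 0.19, adjusted p = 0.755), and cerebellum lay below both (cerebellum minus cortex -2.67, SE 0.21, adjusted p = 1.24e-12). The heart held 0 to 3 counts, with 30 of 36 libraries at 0.

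**Figure D1:**
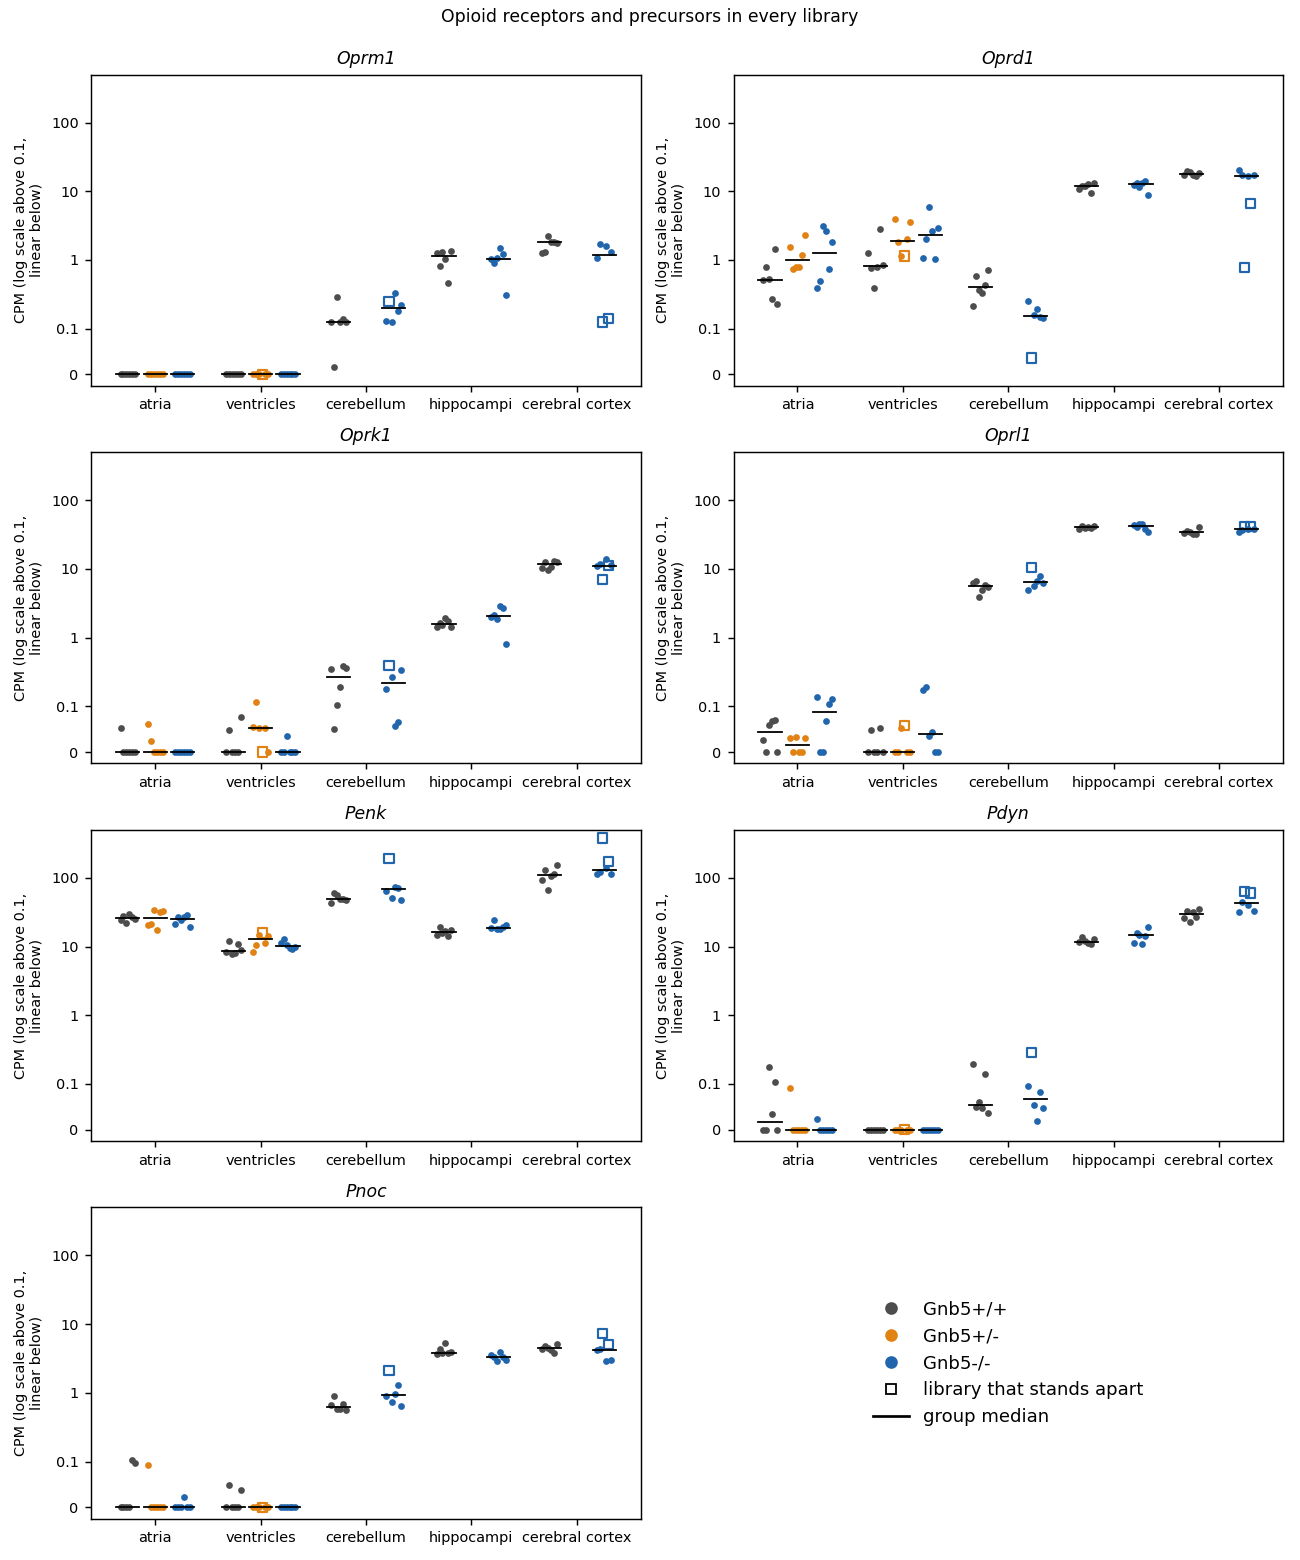
Level of each member (CPM, log axis above 0.1 and linear below) in every library, by tissue, with Gnb5+/+ in gray, Gnb5+/- in orange and Gnb5-/- in blue. Lines are group medians and open squares the 4 libraries that stand apart. Penk and Oprd1 are present in all 5 tissues, and the other 5 genes are at or near 0 in heart.

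Levels of different genes can be set side by side only per length, and on the scale of CPM per exonic kilobase (RPKM) the precursors and receptors did not keep 1 order across tissues. In Gnb5+/+ cortex, the mean RPKM was 67.5 for Penk, 10.2 for Pdyn, 9.24 for Oprl1, 4.51 for Oprd1, 2.06 for Pnoc, 1.26 for Oprk1 and 0.212 for Oprm1. In Gnb5+/+ hippocampi, Oprl1 (10.7 RPKM) and Penk (10.1 RPKM) were nearly level, ahead of Pdyn (4.18 RPKM) and Oprd1 (2.91 RPKM). In Gnb5+/+ cerebellum, Penk (31.4 RPKM) was followed by Oprl1 (1.47 RPKM), with the others at most 0.308 RPKM. In Gnb5+/+ mice, Penk ranked first in cortex, cerebellum, atria and ventricles, and Oprm1 ranked last or tied for last in all 5 tissues. Among 21890 protein-coding genes, Penk was higher than 98.7% in Gnb5+/+ cortex, 96.7% in cerebellum, 89.6% in atria, 83.6% in hippocampi and 74.0% in ventricles. Oprl1 was higher than 84.7% in hippocampi, Oprd1 than 68.5% in cortex, and Oprm1 than only 37.0% in cortex. In the heart, the only 2 members with more than traces were Penk (15.8 RPKM in Gnb5+/+ atria, 5.74 RPKM in ventricles) and Oprd1 (0.156 and 0.285 RPKM), an enkephalin precursor and a receptor that enkephalins bind.

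**Figure D2:**
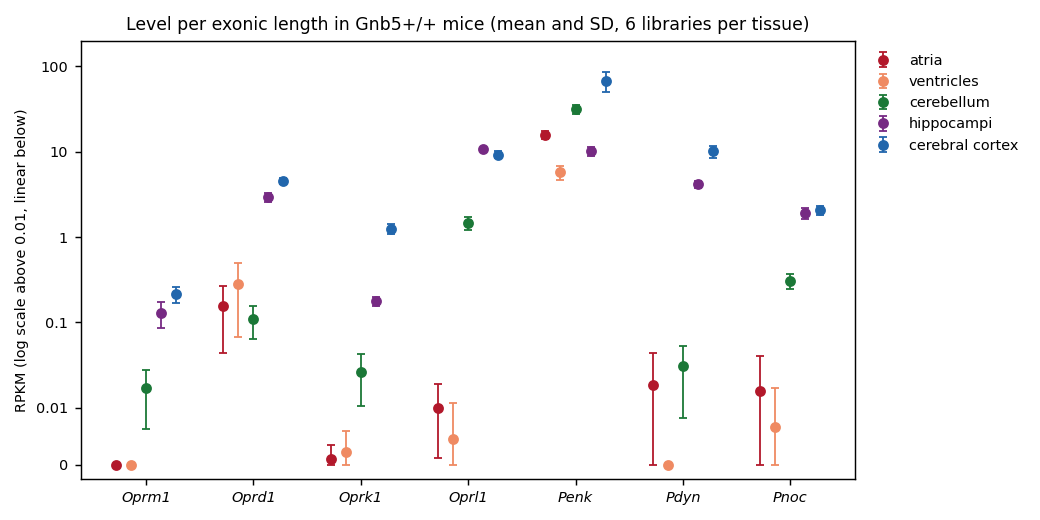
Mean level per length (RPKM, log axis above 0.01 and linear below) of the 7 members in the 5 tissues of Gnb5+/+ mice, with bars for the SD over 6 libraries. Penk is highest in 4 of 5 tissues and level with Oprl1 in hippocampi, while Oprm1 is lowest in each brain tissue.

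Many genes differed between these tissues, so the members are read against that background. A member entered a tissue comparison when either tissue held at least 60 counts of it over its 6 libraries. In Gnb5+/+ mice, 7 of 7 members differed between hippocampi or cortex and either heart tissue or the cerebellum. The percentages of all 19477 genes tested that differed in those comparisons were 86.4 (atria and hippocampi), 87 (atria and cortex), 86.9 (ventricles and hippocampi), 87.4 (ventricles and cortex), 68.3 (cerebellum and hippocampi) and 69.1 (cerebellum and cortex). Between hippocampi and cortex 4 of 7 members were called (Oprd1, Oprk1, Penk and Pdyn, all lower in hippocampi), against 33.5% of all genes. Between the heart and the cerebellum the calls covered 4 of 5 members for atria (86.3% of all genes) and 5 of 5 for ventricles (86.6%). Atria and ventricles differed in 1 of 2 members, Penk, against 51.6% of all genes. With such backgrounds these counts say little about the members as a set.

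The same comparisons were made in Gnb5-/- mice, with the same rule of entry and the same limits. There, 7 of 7 members differed between cortex and atria (79.8% of all 19425 genes), cortex and ventricles (80.8%), cortex and cerebellum (55.5%), hippocampi and ventricles (81.2%), and hippocampi and cerebellum (54.6%). The cerebellum differed from atria (78.6%) and from ventricles (80.1%) in 6 of 6 members. Between atria and hippocampi 6 of 7 were called (80.1%), with Penk as the exception (0.34, adjusted p = 0.264), and without the 3 brain libraries that stand apart Penk was called too (0.33, adjusted p = 0.00632). Atria and ventricles differed in 1 of 2 (41.7%), with Penk again higher in atria (1.23, SE 0.29, adjusted p = 0.000826). Between hippocampi and cortex 3 of 7 were called, against 26% of all genes. Oprd1 in Gnb5-/- mice was higher in atria than in cerebellum (3.28, SE 0.64, adjusted p = 3.38e-05, or 3.07 without the libraries apart).

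None of the members passed the threshold in any of the 9 comparisons between genotypes. Of 31 member tests, 23 of them Gnb5-/- against Gnb5+/+, 0 were called by edgeR and 0 by DESeq2, and the lowest adjusted p was 0.474 by edgeR and 0.0553 by DESeq2. At an unadjusted p under 0.05 there were 10 of 31, 9 of them in the comparisons of Gnb5-/- with Gnb5+/+ mice. Calls were few over all genes too. Of all genes tested, the share called in Gnb5-/- against Gnb5+/+ mice was 0.253% in atria, 0.188% in ventricles, 0.0817% in cerebellum, 0.165% in hippocampi and 0.0557% in cortex. The share at an unadjusted p under 0.05 was 8.15%, 4.78%, 5.85%, 7.7% and 7.39%, in the same order of tissues. Gnb5+/- differed from Gnb5+/+ in 0.0124% of genes in atria and 0.0202% in ventricles, and Gnb5-/- from Gnb5+/- in 0.0494% and 0.0874%, with 7.22%, 4.84%, 4.86% and 8.79% at an unadjusted p under 0.05 in those 4 comparisons.

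**Figure D3:**
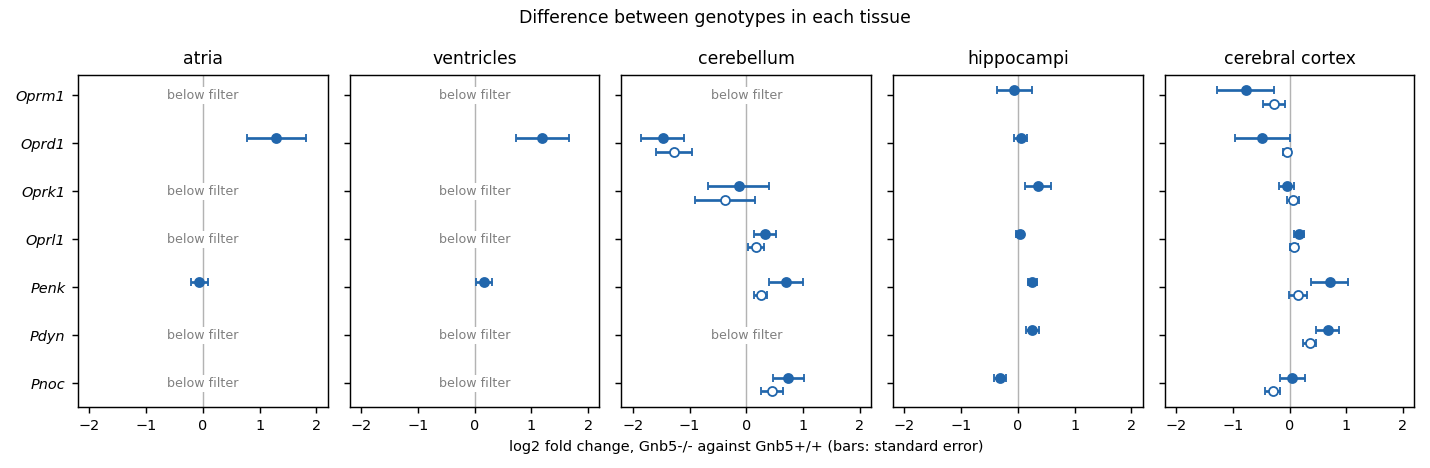
Log2 difference of each member between Gnb5-/- and Gnb5+/+ mice in the 5 tissues, with bars for 1 SE, filled points for all libraries and open points without the libraries that stand apart. Members with too few counts are marked as below the filter. No difference passed the adjusted threshold, the lowest difference is Oprd1 in cerebellum (-1.47) and the highest Oprd1 in atria (1.29).

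In the heart, 2 members had enough counts to be tested, Oprd1 and Penk. Oprd1 was higher on average in mutant hearts, in both chambers, with wide overlap. In atria it measured 0.228, 0.518 and 1.45 CPM in Gnb5+/+, 0.749, 0.987 and 2.33 CPM in Gnb5+/- and 0.389, 1.27 and 3.12 CPM in Gnb5-/- mice. In ventricles it measured 0.384, 0.81 and 2.84 CPM in Gnb5+/+, 1.12, 1.91 and 3.92 CPM in Gnb5+/- and 1.02, 2.32 and 5.92 CPM in Gnb5-/- mice. The medians were higher with each lost copy in both chambers, but the lowest Gnb5-/- atrial library lay within the Gnb5+/+ range, and 4 of 6 Gnb5-/- libraries lay above the Gnb5+/+ mean in each chamber. The difference between Gnb5-/- and Gnb5+/+ was 1.29 in atria (SE 0.52, unadjusted p = 0.0222, adjusted p = 0.488 by edgeR) and 1.19 in ventricles (SE 0.47, unadjusted p = 0.0191, adjusted p = 0.841 by edgeR). It ranged in atria from 0.97 without Gnb5-/- mouse 14 to 1.72 without Gnb5+/+ mouse 7, and in ventricles from 0.76 to 1.69 without the same mice. Gnb5+/- against Gnb5+/+ gave 0.97 in atria (SE 0.52, adjusted p = 0.735) and 0.98 in ventricles (SE 0.48, adjusted p = 0.961, and 1.12 without mouse 4). Gnb5-/- against Gnb5+/- gave 0.32 in atria and 0.21 in ventricles, -0.01 and -0.22 without Gnb5-/- mouse 14, and 0.07 in ventricles without Gnb5+/- mouse 4. The comparisons of Gnb5+/- and Gnb5-/- with Gnb5+/+ share the same Gnb5+/+ libraries. The difference between Gnb5-/- and Gnb5+/+ mice in ventricles minus that in atria was -0.02 (SE 0.35).

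Marker lists of other cells were read beside these values. The 6 markers of intracardiac and sympathetic neurons summed to 14.5 to 27.4 CPM in Gnb5+/+ atria and 16.3 to 30.6 CPM in Gnb5-/- atria, and to 2.86 to 8.15 CPM and 3.27 to 6.89 CPM in ventricles, where Chat and Slc18a3, the defining genes of cholinergic neurons, were at 0 in both genotypes. Of this list 3 were tested in atria and 0 called, with a median of 1.85. The 4 ventricular markers summed to 75.7 to 1341 CPM in Gnb5+/+ atria and 118 to 443 CPM in Gnb5-/- atria. The part of any of these in the Oprd1 values was not tested.

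The Oprd1 levels of atria and ventricles went together from mouse to mouse. Over 18 mice, log2 CPM in atria and ventricles correlated with Pearson's r of 0.811 (permutation p = 0.00012, adjusted p = 0.00042) and Spearman's rho of 0.765 (permutation p = 0.00051, adjusted p = 0.00203). The adjusted values come from a family of 7 relations computed after the data were seen. These are Oprd1 over overlapping sets of mice and Penk, so the adjustment does not cover 7 separate questions. Without the 2 mice farthest from the atrial median, r was 0.758 over 16 mice, and without mouse 4 it was 0.812. Within genotypes of 6 mice, r was 0.574 in Gnb5+/+ (exact permutation p = 0.224), 0.870 in Gnb5+/- (exact permutation p = 0.0292, adjusted p = 0.051) and 0.835 in Gnb5-/- (exact permutation p = 0.0389, adjusted p = 0.0544), so within a genotype it was not past the threshold once adjusted. Penk in the same mice gave r of 0.152 (permutation p = 0.544) and rho of 0.245 (permutation p = 0.326).

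**Figure D4:**
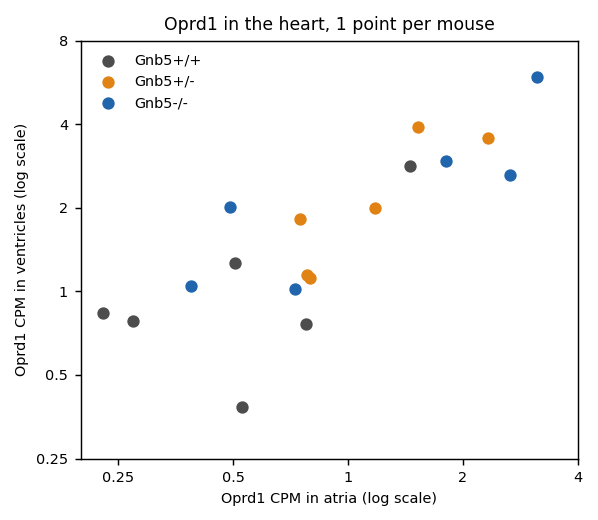
Oprd1 level in ventricles against atria (CPM, both axes log), with 1 point per mouse for 18 mice and genotypes in gray, orange and blue. Mice high in atria are mostly high in ventricles (r of 0.811 on log2 values), and the 3 genotypes overlap.

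Penk in the heart differed little between genotypes. Atria held 21.8, 25.8 and 30.1 CPM in Gnb5+/+, 17.3, 26.5 and 34.1 CPM in Gnb5+/- and 19.3, 25.5 and 29.2 CPM in Gnb5-/- mice, and the 3 ranges overlapped almost wholly. The difference of Gnb5-/- from Gnb5+/+ was -0.06 (SE 0.15, unadjusted p = 0.674). In ventricles the ranges were 7.74, 8.63 and 12.2 CPM in Gnb5+/+, 8.37, 12.7 and 15.8 CPM in Gnb5+/- and 9.27, 10.2 and 12.7 CPM in Gnb5-/- mice, with Gnb5+/- highest and an overlap of all 3. Gnb5-/- against Gnb5+/+ gave 0.16 (SE 0.14, unadjusted p = 0.273), and Gnb5+/- against Gnb5+/+ gave 0.40 (SE 0.14, unadjusted p = 0.0117, adjusted p = 0.961 by edgeR). Without the Gnb5+/- ventricles of mouse 4, whose Penk of 15.8 CPM was the highest, that difference was 0.33. The other 5 members were below the filter in both chambers.

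In the cerebellum, Oprd1 had the lowest log2 difference and the smallest unadjusted p of the member tests between genotypes. The levels were 0.213, 0.398 and 0.719 CPM in Gnb5+/+ and 0.0359, 0.153 and 0.256 CPM in Gnb5-/- mice, or 0.144 to 0.256 CPM without mouse 12. All 6 Gnb5-/- libraries lay below the Gnb5+/+ mean, with a small overlap at the lower end of the Gnb5+/+ range. These levels rest on 12 to 40 counts per Gnb5+/+ library and 2 to 16 per Gnb5-/- library. The difference was -1.47 (SE 0.37, unadjusted p = 0.00162, adjusted p = 0.583 by edgeR). Without mouse 12 it was -1.27 (SE 0.31, adjusted p = 0.14), and DESeq2 without mouse 12 called it (-1.29, adjusted p = 0.0362).

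In the cerebellum, Penk and Pnoc were higher on average in Gnb5-/- mice, not past the threshold, and both differences were smaller without mouse 12. Penk stood at 43.6, 49.7 and 59.8 CPM in Gnb5+/+ and at 47.1, 67.9 and 190 CPM in Gnb5-/- mice, the last being mouse 12. The difference was 0.70 (SE 0.30, unadjusted p = 0.0369), and 0.26 without that library. Pnoc stood at 0.557, 0.62 and 0.906 CPM in Gnb5+/+ and 0.64, 0.93 and 2.10 CPM in Gnb5-/- mice, a difference of 0.74 (SE 0.28, unadjusted p = 0.0199) that was 0.45 without mouse 12. For both genes the Gnb5-/- range began inside the Gnb5+/+ range. The difference of Oprl1 was 0.33 (SE 0.19, unadjusted p = 0.103 by edgeR), with 5 of 6 Gnb5-/- libraries above the Gnb5+/+ mean, and 0.17 without mouse 12. That of Oprk1 was -0.13 (SE 0.54), and -0.37 without mouse 12. In mouse 12 the 6 choroid plexus markers also summed to 631 CPM, the highest in Gnb5-/- cerebellum, against at most 14.8 CPM in Gnb5+/+ cerebellum, and their part in these values was not tested. Pdyn (0.0193, 0.0673 and 0.287 CPM in Gnb5-/- mice) and Oprm1 (0.124, 0.202 and 0.327 CPM) were below the filter.

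In the hippocampi, where no library stood apart, Penk and Pdyn were slightly higher on average in Gnb5-/- mice and Pnoc slightly lower, none past the threshold. Penk measured 14.3, 16.4 and 19.5 CPM in Gnb5+/+ and 17.9, 18.9 and 24.2 CPM in Gnb5-/- mice, and all 6 Gnb5-/- libraries lay above the Gnb5+/+ mean. Its difference was 0.26 (SE 0.09, unadjusted p = 0.0101, adjusted p = 0.506 by edgeR). Pdyn measured 10.9, 11.7 and 13.9 CPM against 11.04, 14.7 and 19.2 CPM, with 4 of 6 Gnb5-/- libraries above the Gnb5+/+ mean. The Pdyn difference was the same in size, 0.26 (SE 0.12, unadjusted p = 0.049, adjusted p = 0.648 by edgeR), with a wider spread in Gnb5-/- mice. The 6 dentate granule markers, genes of the neurons in which hippocampal Pdyn is known, summed to 232 to 329 CPM in Gnb5+/+ and 257 to 396 CPM in Gnb5-/- mice, with a median difference of 0.17, 1 at an unadjusted p under 0.05 and 0 called. The 6 hippocampal markers summed to 416 to 503 CPM and 453 to 567 CPM, with a median of 0.09, 0 called by edgeR and 1 by DESeq2. The part of either list in the Pdyn and Penk values was not tested.

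Pnoc measured 3.68, 3.85 and 5.25 CPM in Gnb5+/+ and 2.88, 3.33 and 3.99 CPM in Gnb5-/- hippocampi, and all 6 Gnb5-/- libraries lay below the Gnb5+/+ mean although the ranges overlapped. The difference was -0.31 (SE 0.11, unadjusted p = 0.012, adjusted p = 0.526 by edgeR). Of the 8 interneuron markers (Gad1, Gad2, Sst, Npy and others, genes of the inhibitory neurons among which Pnoc is known), 4 were at an unadjusted p under 0.05 and 0 called by edgeR, 2 by DESeq2. Their median was -0.15, and their sum ranged from 556 to 692 CPM in Gnb5+/+ and from 417 to 588 CPM in Gnb5-/- mice. The 6 choroid plexus markers summed to 26.7 to 1198 CPM in Gnb5+/+ and 26.9 to 224 CPM in Gnb5-/- mice, with 0 called and a median of -1.97. The part of either in the Pnoc value was not tested.

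None of the hippocampal receptors differed past the threshold. Oprl1 measured 37.7, 40.1 and 42.2 CPM in Gnb5+/+ and 33.98, 42.3 and 45.0 CPM in Gnb5-/- mice (0.03, SE 0.06). Oprd1 measured 8.68, 12.5 and 14.1 CPM in Gnb5-/- mice (0.05, SE 0.11), Oprk1 0.812, 2.07 and 2.93 CPM (0.35, SE 0.23, the highest member difference in hippocampi, with 5 of 6 libraries above the Gnb5+/+ mean) and Oprm1 0.307, 1.04 and 1.51 CPM (-0.06, SE 0.31). For each of the 4 the Gnb5-/- range reached below and above the Gnb5+/+ range.

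In the cortex, Pdyn had the smallest unadjusted p of the member tests in that tissue. It measured 22.8, 29.5 and 34.9 CPM in Gnb5+/+ and 31.6, 42.4 and 63.7 CPM in Gnb5-/- mice, and all 6 Gnb5-/- libraries lay above the Gnb5+/+ mean, the 2 highest being the libraries that stand apart. The difference was 0.67 (SE 0.20, unadjusted p = 0.00491, adjusted p = 0.474 by edgeR), and 0.35 without mice 3 and 14 (SE 0.12, unadjusted p = 0.0117, adjusted p = 0.955 by edgeR), where the range was 31.6 to 44.0 CPM. Penk measured 67.3, 110 and 152 CPM in Gnb5+/+ and 115, 128 and 381 CPM in Gnb5-/- mice, the last being mouse 14. Its difference of 0.71 (SE 0.33, unadjusted p = 0.0515) was 0.14 without mice 3 and 14.

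The cortical receptors depended on the same libraries. Oprd1 measured 16.4, 18.0 and 19.997 CPM in Gnb5+/+ and 0.774, 16.8 and 20.1 CPM in Gnb5-/- mice, the lowest being mouse 14 with 31 counts. Its difference of -0.48 (SE 0.48) was -0.04 without mice 3 and 14, and the remaining 4 libraries (16.6 to 20.1 CPM) covered nearly the Gnb5+/+ range. Oprm1 measured 1.26, 1.79 and 2.22 CPM in Gnb5+/+ and 0.125, 1.17 and 1.72 CPM in Gnb5-/- mice (-0.77, SE 0.51, and -0.27 without mice 3 and 14). Oprl1 (34.2, 37.8 and 41.7 CPM in Gnb5-/- mice, 0.17, SE 0.09, and 0.08 without mice 3 and 14), Oprk1 (6.96, 11.2 and 14.2 CPM, -0.05, SE 0.14, and 0.06 without them) and Pnoc (2.90, 4.27 and 7.29 CPM, 0.05, SE 0.22) overlapped between genotypes. Pnoc turned to -0.30 without mice 3 and 14 (unadjusted p = 0.0397).

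Penk and Pdyn are strong in the striatum, which lies under the cortex, so a list of 12 striatal genes that holds no member was read in the same libraries (Drd1, Adora2a, Ppp1r1b and 9 others). They summed to 319 to 699 CPM in Gnb5+/+ cortex and 428 to 617 CPM in Gnb5-/- cortex, with a median difference of 0.23, 1 of 12 at an unadjusted p under 0.05 and 0 called. Gnb5+/+ mouse 17 had the lowest sum (319 CPM) and the lowest Penk (67.3 CPM), and Gnb5+/+ mouse 8 the highest of both (699 and 152 CPM). Correlations of the 7 members with the mean log2 level of this list formed a family of 7 relations. Over all 12 libraries, Penk gave Pearson's r of 0.349 (adjusted permutation p = 0.598) and Spearman's rho of 0.497, and without the 2 libraries farthest from the median r was -0.26. Without mice 3 and 14, r for Penk was 0.958 over 10 libraries (permutation p = 6.0e-05, adjusted p = 0.00042). Within the 6 Gnb5+/+ libraries r for Penk was 0.984 (exact permutation p = 0.00139, adjusted p = 0.00972). Within all 6 Gnb5-/- libraries, mice 3 and 14 included, it was -0.70, and a value within Gnb5-/- without these mice is not given. Pdyn gave r of 0.284 over 12 libraries, 0.686 without mice 3 and 14 (adjusted permutation p = 0.066) and 0.843 within Gnb5+/+ (exact permutation p = 0.0361, adjusted p = 0.0843). Oprk1 gave 0.574 over 12 libraries and 0.803 without mice 3 and 14 (adjusted permutation p = 0.0131). With the striatal mean as a covariate and without mice 3 and 14, the Pdyn difference between genotypes was 0.26 (unadjusted p = 0.042) and that of Penk -0.06.

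**Figure D5:**
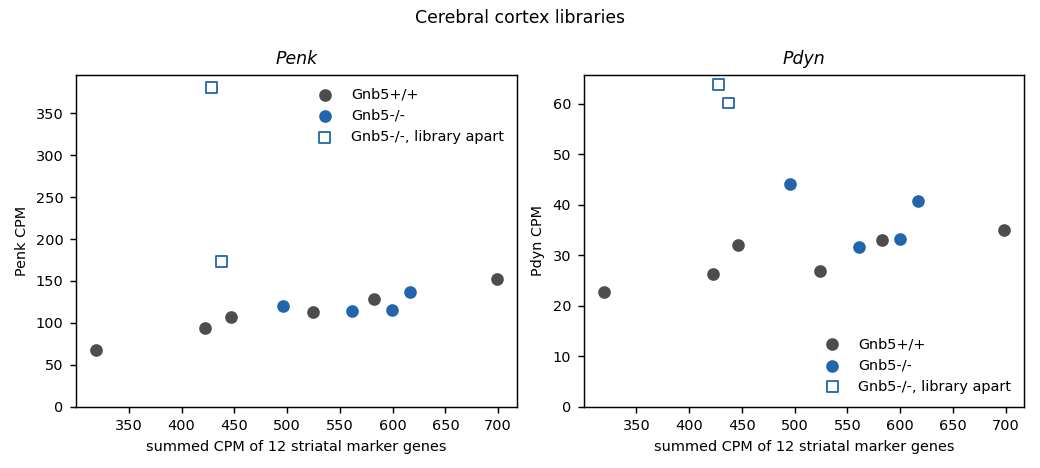
Level of Penk and Pdyn (CPM) against the summed level of 12 striatal marker genes (CPM) in the 12 cortex libraries, Gnb5+/+ in gray and Gnb5-/- in blue, with open squares for mice 3 and 14. Penk follows the striatal sum in the other 10 libraries (r of 0.958 with the mean log2 level of the same genes), and both open squares lie above that trend.

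Whether the effect of the deletion differed between tissues was tested directly, with each mouse as a block, and no member was called. Of all genes, 0.0258% were called between cerebellum and hippocampi, 0.0103% between cerebellum and cortex, 0% between hippocampi and cortex and 0.00622% between ventricles and atria. For Oprd1 the effect in cerebellum was below that in hippocampi by a log2 difference of -1.60 (SE 0.64, unadjusted p = 0.0202, adjusted p = 0.884 by edgeR), and -1.31 without the 3 brain libraries apart (adjusted p = 0.0748 by edgeR). For Pnoc the effect in cerebellum was above that in hippocampi by 0.97 (SE 0.32, unadjusted p = 0.00518, adjusted p = 0.884 by edgeR), and 0.76 without those libraries (adjusted p = 0.191 by edgeR). For Penk the effect in ventricles and atria differed by 0.25 (SE 0.15).

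The rest of the pathway was followed through lists of genes. No gene of the following lists was called by edgeR between Gnb5-/- and Gnb5+/+ mice in any tissue, all libraries included. The processing list held 7 genes (convertases and trimming enzymes such as Pcsk1, Pcsk2 and Cpe, with Pam, Pcsk1n and Scg5 beside them). The degradation list held 6 enzymes (Mme, the enkephalin-cleaving neprilysin, among them). The G-protein and RGS list held 14 genes (Gi/o alpha subunits, R7 RGS proteins and their anchors, with Rgs4 and Rgs19 beside them). The others were 9 effector channels and cyclases, and 6 kinases and arrestins of receptor desensitization. Medians of the processing list were 0.01 in atria, 0.05 in ventricles, -0.01 in hippocampi, 0.20 in cerebellum and 0.46 in cortex, and without the libraries apart 0.06 in cerebellum and -2.91e-05 in cortex. Medians over all genes were -0.01 to 0.01. Medians of the degradation list lay between -0.10 and 0.12, those of the G-protein and RGS list reached at most 0.10, those of the effectors between -0.16 and 0.04 and those of the desensitization list between -0.19 and 0.01 over the 5 tissues. The lowest medians of the effectors and of the desensitization list were those of the cortex, and without mice 3 and 14 both were -0.03. Without mouse 12 the effector median in cerebellum went from -0.10 to 0.04. The genes called only in another fit were named after their values were seen. DESeq2 called Gpr158, an anchor of R7 RGS proteins at the membrane, in atria (-0.70, SE 0.18, adjusted p = 0.0304), and edgeR without mouse 12 called it in cerebellum (-0.24, SE 0.05, adjusted p = 0.0484). DESeq2 also called Adcy1, a calcium-stimulated adenylyl cyclase, in ventricles (0.87, SE 0.20, adjusted p = 0.00667). Between Gnb5-/- and Gnb5+/- ventricles, edgeR called Adcy1 (1.10, SE 0.20, adjusted p = 0.0272). Pomc, the remaining opioid precursor gene, was low in every tissue, with means from 0.102 CPM in Gnb5+/+ atria to 0.874 CPM in Gnb5-/- cortex. It was below the filter in heart, and its differences were -0.03 in cerebellum (-0.86 without mouse 12), 0.33 in hippocampi and 0.78 in cortex (-0.25 without mice 3 and 14).

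Across the 12 group means, each member had genes with nearly the same pattern (Pearson's r of mean log2 CPM over 12 groups, 16137 genes ranked, a description over groups that share mice and tissues). The 3 most alike were Bmp8b (0.995), Gsx1 (0.993) and Kcnn3 (0.992) for Oprm1, and those of Oprd1 included Glyctk (0.980) and Rasgrf2 (0.965). For Oprk1 they were Camk2g (0.997), Ankrd34c (0.995) and Mei1 (0.995), and for Oprl1 Vstm2a (1.000), Fam43b (0.999) and Celf6 (0.999). Penk had the loosest matches, Fgfbp1 (0.961), Cc2d1b (0.956) and Tmem40 (0.953). For Pdyn they were Cbln2 (0.997), Kcnv1 (0.997) and Gpr149 (0.996), and for Pnoc Ttll11, Ly6h and Vgf (0.998 each), Vgf being the gene of another secreted neuropeptide precursor.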

How the data were processed

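RNA of whole tissue from 18 male mice was sequenced as TruSeq Stranded Total RNA libraries, 72 in all. The authors trimmed the single-end reads with cutadapt 1.8, aligned them to GRCm38 with STAR 2.5.3a and counted uniquely mapped reads per gene with HTSeq 0.9.1 (versions from the submitters' processing notes). They deposited raw counts per Ensembl gene and library, not normalized. The strand setting of the counting is not given in the sources used here. Rows for unassigned reads (a median of 6.8% without a feature) were left out of library sizes. By tissue the median ran from 4.71% in ventricles to 16.2% in cerebellum. The libraries that stand apart held the lowest shares of their groups. These were 6.86% and 8.32% in the Gnb5-/- cortex of mice 14 and 3, 8.02% in the Gnb5-/- cerebellum of mouse 12 and 2.85% in the Gnb5+/- ventricles of mouse 4.

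From these counts, 53620 of 53715 identifiers were matched to GENCODE M21 symbols, CPM was computed with TMM factors over all libraries, and RPKM by dividing by exonic kilobases. Comparisons used edgeR 4.0.16 in R 4.3.3 (filterByExpr with a count minimum of 10, TMM, quasi-likelihood test, Benjamini-Hochberg over all genes tested), with DESeq2 1.42.0 as an alternative. Each tissue was fitted with all its genotypes, and the tissues of a genotype were fitted together. Correlations and summaries used Python 3.11.15, numpy 2.4.6, scipy 1.17.1 and pandas 2.3.3, with exact permutation for 6 values and 100000 resamples otherwise. Intervals and floors cover counting error only. The fits were tested on simulated data with known changes. The mouse numbers in the sample names pair the tissues of a mouse. Counts of libraries in a group differed by more than sampling noise, so none was merged.

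Every member is named in every group. Of the pathway lists, the genes called by edgeR and Pomc are named (Gpr158, called in other fits, was named after its values were seen), and for each member the 3 protein-coding genes most alike over the group means. For Oprd1, 1 of these is not reported here. The members and lists were chosen with earlier results of these data known. The alternatives were another size factor (RLE), no filter, a stricter filter, a robust fit, fits on only the groups compared, a replicate or mouse block, a striatal covariate and leaving out each replicate. Leaving out the libraries that stand apart was chosen after seeing the data. Coding sequences were read from GENCODE M21 transcripts (GRCm38).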

Additional observations from a re-analysis of the deposited data

Results flagged for a closer look

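In 50 groups of 6 libraries examined, 4 held a value whose gap to its nearest neighbour exceeded Dixon's critical share of the group's range, and chance gives about 1 in 20 groups. Penk in the Gnb5-/- cortex of mouse 14 was 381 CPM, with the next library at 173 CPM. Penk in the Gnb5-/- cerebellum of mouse 12 was 190 CPM, with the next at 73.2 CPM. Both are libraries whose levels depart from their group with exonic length, as described above. Oprd1 in the Gnb5+/+ ventricles of mouse 7 was 2.84 CPM against 1.26 CPM in the next library, and it is the value whose removal gave the highest Oprd1 difference between genotypes in ventricles. Oprl1 in the Gnb5+/+ cortex of mouse 8 was 40.7 CPM, with the next at 35.1 CPM.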

How the results depend on the processing

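The counts of called members between genotypes were 0 in all 9 comparisons under the alternatives run, except that DESeq2 without mouse 12 called 1 member (Oprd1) in cerebellum. Between Gnb5+/+ atria and ventricles, DESeq2 and RLE size factors each called 2 members where 1 was called as reported. Limits: members of the heart other than Penk and Oprd1 rest on too few counts to be compared, and Oprd1 in heart and cerebellum and Oprm1 rest on few counts per library.
Over all genes the number called between Gnb5-/- and Gnb5+/+ was higher by DESeq2 than by edgeR, 110 against 41 in atria, 63 against 28 in ventricles, 52 against 14 in cerebellum (199 without mouse 12), 110 against 29 in hippocampi and 34 against 10 in cortex (55 without mice 3 and 14, where edgeR called 26). Replicate numbers join different animals across genotypes and were not treated as pairs, and a fit with a replicate block gave 37, 23, 5, 19 and 6 calls in the same order of tissues and called no member. Between Gnb5-/- and Gnb5+/- DESeq2 called 27 against 8 in atria and 68 against 13 in ventricles. With the mouse as a block between tissues, Oprm1 was added to the calls between Gnb5+/+ hippocampi and cortex, and Oprm1 and Oprl1 were called there when only these tissues were fitted.
Correlations with the striatal list in cortex changed sign or side of the threshold. Without mice 3 and 14 they were -0.40 for Oprm1, -0.0767 for Oprd1, 0.803 for Oprk1 and 0.958 for Penk. Without the 2 libraries farthest from the median they were -0.26 for Penk and -0.38 for Pdyn. Within Gnb5+/+ they were -0.33 for Oprm1, 0.984 for Penk and 0.348 for Pnoc. Within Gnb5-/-, mice 3 and 14 included, they were -0.55 for Oprl1, -0.70 for Penk, -0.81 for Pdyn and -0.95 for Pnoc.
Some uncalled differences changed sign. In cortex without mice 3 and 14, Oprk1 was 0.0563 (0.0568 by DESeq2) and Pnoc -0.30 (-0.299 by DESeq2 and -0.300 with the striatal covariate), Penk was -0.0606 with the striatal covariate, and Pnoc was -0.0315 with a replicate block. Oprm1 between Gnb5-/- hippocampi and cortex was -0.50 without the 3 libraries apart. Leaving out each replicate, differences of Gnb5-/- from Gnb5+/+ ranged from -0.37 to 0.0619 for Oprk1 in cerebellum, -0.13 to 0.0344 for Oprk1 and -0.19 to 0.15 for Pnoc in cortex, and in hippocampi from -0.00802 to 0.12 for Oprd1, -0.000811 to 0.0753 for Oprl1 and -0.21 to 0.12 for Oprm1. Penk ranged from -0.0613 to 0.12 between Gnb5+/- and Gnb5+/+ atria, and Oprd1 between Gnb5-/- and Gnb5+/- from -0.00762 to 0.60 in atria and -0.22 to 0.44 in ventricles. The cause of these changes was not tested. The remaining 1302 values for single genes and 350 for counts and correlations kept their direction and side of the threshold.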

Other observations

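The genes whose levels followed Oprd1 from mouse to mouse in the heart were looked for after the data were seen, with genotype means removed, and are given as a description. Of 17941 genes ranked by the weaker of their correlations in atria and ventricles, 1075 (5.99%) lie on chromosome 4, where Oprd1 lies. Of the 20 genes most positively alike 4 were on chromosome 4, among them Sesn2, 0.38 Mb from Oprd1, and of the 20 most negatively alike 11 were, among them Snhg3, 0.237 Mb away, and Hmgn2, 1.85 Mb away. Hmgn2, a nucleosome-binding protein gene, was lowest in Gnb5+/- mouse 11 (4.29 CPM in atria and 4.08 CPM in ventricles) and Gnb5-/- mouse 14 (4.53 and 4.70 CPM). In the other 16 mice it stood at 8.19 to 18.4 CPM in atria and 15.3 to 30.7 CPM in ventricles.

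A list of 9 immediate early genes (Fos, Egr1, Arc, Nr4a1 and others, genes switched on within minutes of cell stimulation) had a median log2 difference between Gnb5-/- and Gnb5+/+ mice of -1.05 in atria and -0.99 in ventricles, against medians close to 0 over all genes. Of those tested, 6 of 8 in atria and 4 of 7 in ventricles were at an unadjusted p under 0.05, against 8.15% and 4.78% of all genes. By edgeR or DESeq2, 0 were called. The summed levels overlapped between genotypes. They ranged from 79.8 to 571 CPM in Gnb5+/+ atria and from 53.0 to 175 CPM in Gnb5-/- atria. In ventricles they ranged from 33.8 to 317 CPM in Gnb5+/+ and from 39.4 to 72.7 CPM in Gnb5-/- mice. In brain the medians were -0.21 in cerebellum, 0.08 in hippocampi and -0.47 in cortex.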
